A study of Sus scrofa with 40 samples.

Results

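Pork belly (PB) was set against the longissimus dorsi (LDM), the long muscle of the back, in Chalu black pigs, a pork breed, by RNA sequencing of whole muscle. The comparison took the 10 libraries titled PB and the 10 titled LDM, 20 of the 40 libraries of the series, and every gene of the count table. The pigs were males by a common sire, raised alike and slaughtered after a fast, and the tissue came from the left carcass side, away from fascia. The remaining 20 libraries, 10 each of hamstring (HM) and trapezius (TM), entered the same fit and are quoted only to place a level. The labels give no age and do not say which muscle sheet of the belly was taken. Libraries carry numbers from 1 to 10 within each cut, and no label ties a number to an animal, so p-values measure only the spread between libraries, which may be technical.

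Muscle fibres come as slow fibres, which contract slowly and burn fat in mitochondria, and fast fibres, which contract quickly and can live on glycogen and glycolysis. Each kind makes its own copy of most contractile and calcium-handling proteins, so the slow and fast members of a pair of related genes report the fibre mix of a muscle. The longissimus of pigs is known as a pale muscle rich in fast glycolytic fibres. Belly is a layered cut of trunk muscle and fat.

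Library totals ran from 12305913 to 15907082 counts in PB and from 14153884 to 17441798 in LDM. Levels are given in CPM, counts scaled to 1000000 per library and adjusted by a TMM scaling factor of each library. Before these factors, 1 count equals 0.0813 in the smallest library of PB and 0.0707 in that of LDM. By correlation with the cut means, 10 of 10 PB and 10 of 10 LDM libraries lay nearest to their own cut. The first principal component of the 1000 most variable genes held 39.8% of the variance and the second 18.7%. The library PB1 is titled PB, but its tissue and source entries call it longissimus; it lay nearest to PB and was kept there. The library PB8 stood apart by leukocyte genes, and PB8 and PB5 were high for heat shock and immediate early genes, as given beside the cell type markers. Skeletal actin ACTA1, the defining actin of skeletal muscle, stood at 52806 to 90577 CPM in PB (median 72380.4), against 38142 to 68228 CPM in LDM (median 52036), and its log2 change of 0.43 ± 0.16 (adjusted p = 0.0272) did not pass without PB5 (adjusted p = 0.0551). In whole tissue, fewer cells of a type and less RNA per cell cannot be told apart.

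Of 11713 genes with enough counts, 4880 differed between PB and LDM, 41.7% of those tested (edgeR quasi-likelihood test, Benjamini-Hochberg adjusted p under 0.05). In PB, 2397 genes (20.5%) were higher and 2483 (21.2%) lower, and these are the background shares for every list below. A difference of at least 2-fold was more often a gain: 1120 genes (9.56%) were higher in PB by that much and 297 (2.54%) lower. For 405 of the higher genes (3.46% of all tested) every PB library lay above every LDM library, and for 171 of the lower genes (1.46%) every PB library lay below. Without PB1 the count was 4697, and without PB8 it was 4726. Below, a gene rose or fell where it passed this test in PB against LDM, changes are log2 values of PB over LDM with their SE, levels are the lowest to the highest CPM of 10 libraries, and levels in HM and TM are means with their SD. The median change over all genes tested was -0.019. Shorter genes tended lower and longer genes higher: of 5 equal bins by length, the shortest (120 to 2460 bases) had a median of -0.17 with 27.5% lower and 11.6% higher, and the longest had a median of 0.14 with 17.1% lower and 29.7% higher. Across genes, which are not independent replicates, change and log2 length had a Pearson r of 0.149 and a Spearman rho of 0.165, and GC content was not analysed here.

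**Figure D1:**
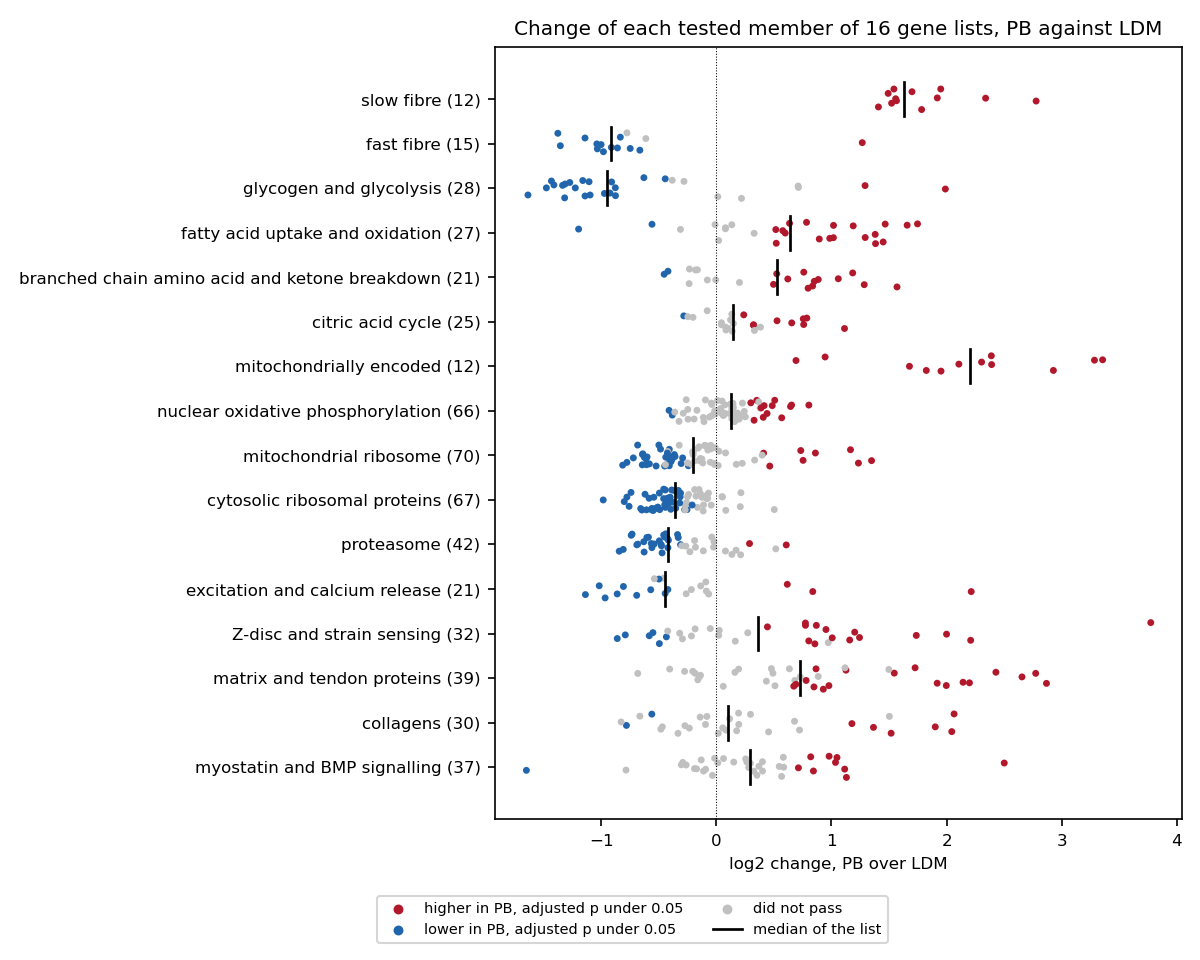
Log2 change of PB over LDM (horizontal axis) for each tested member of 16 gene lists, with the number tested in brackets. Points are genes, coloured where the adjusted p was under 0.05, and black bars are list medians; all 12 slow fibre genes and all 12 mitochondrially encoded genes lie right of 0, and 20 of 28 glycogen and glycolysis genes passed to the left.

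The slow contractile programme was higher in belly. All 12 tested genes of the slow fibre list rose, with a median change of 1.63. The slow myosin-binding protein MYBPC1 (ENSSSCG00000000866, chromosome 5 from 82557607 to 82696126), which tunes the pull of the thick filament, stood at 5788 to 10956 CPM in PB (median 9252), against 1608 to 2902 CPM in LDM (median 2386). It rose by 1.92 ± 0.16 (adjusted p = 1.07e-11), and no PB library reached down to an LDM library. MYOZ2 (ENSSSCG00000032838, chromosome 8 from 104574430 to 104609328), a Z-disc protein of slow fibres that binds calcineurin, stood at 764 to 1872 CPM in PB (median 1125), against 39.7 to 483 CPM in LDM (median 160.1). It rose by 2.78 ± 0.40 (adjusted p = 1.27e-06), again without overlap. The slow regulatory light chain MYL2 stood at 3069.6 to 7119.9 CPM in PB (median 5334), against 703 to 1863 CPM in LDM (median 1316), and rose by 1.95 ± 0.32 (adjusted p = 7.75e-06). The slow troponin subunits, the calcium switch of the thin filament, changed by close amounts: TNNC1 by 1.54 ± 0.30, TNNI1 by 1.52 ± 0.32 and TNNT1 by 1.56 ± 0.30. The 10 PB libraries lay above the 10 LDM libraries for MYL2, TNNC1 and TNNT1, while TNNI1 overlapped. Slow myosin heavy chain MYH7 stood at 13357 to 36373 CPM in PB (median 27913), against 3946 to 16378 CPM in LDM (median 8803), with overlap between the cuts. ATP2A2, the calcium pump of slow fibres, rose by 1.78 ± 0.29 (adjusted p = 6.4e-06), and CSRP3, a stretch-linked LIM protein of slow fibres, by 2.34 ± 0.62 (adjusted p = 0.00263).

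In these genes belly stood near the other cuts. MYBPC1 averaged 6679 ± 1699 CPM in HM and 6618 ± 1600.1 CPM in TM, and PB differed from them by 0.39 ± 0.16 over HM and 0.41 ± 0.16 over TM (adjusted p = 0.0573 and 0.0566). MYOZ2 averaged 853 ± 549 CPM in HM and 968 ± 656 CPM in TM, and the PB change was 0.54 ± 0.38 over HM and 0.36 ± 0.38 over TM (adjusted p = 0.294 and 0.519). MYH7 averaged 24477 ± 11806 CPM in HM and 34597 ± 19554 CPM in TM, with PB changes of 0.13 ± 0.32 over HM and -0.37 ± 0.32 over TM (adjusted p = 0.81 and 0.419). None of these contrasts passed, against 27.6% of all genes tested that differed between PB and HM and 23.1% between PB and TM, which does not show that the cuts are alike.

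Fast fibre genes were lower in belly, but by less than the slow genes were higher. Of 15 tested, 12 fell and 1 rose, with a median of -0.91. The fast myosin-binding protein MYBPC2 stood at 3165 to 7846 CPM in PB (median 4859), against 8100.1 to 14006 CPM in LDM (median 10654), and fell by 1.14 ± 0.25 (adjusted p = 0.000416) without overlap. ACTN3, the fast alpha-actinin of the Z-disc, stood at 1836 to 8965 CPM in PB (median 4079), against 8035 to 16239.9 CPM in LDM (median 9957). Its change was -1.38 ± 0.35 (adjusted p = 0.00162), and the highest PB library lay above the lowest LDM library. The calcium store protein CASQ1 changed by -1.04 ± 0.20 (adjusted p = 7.66e-05), fast troponin C TNNC2 by -0.86 ± 0.26 (adjusted p = 0.00666) and the fast calcium pump ATP2A1 by -0.75 ± 0.26 (adjusted p = 0.0193). MYH4-MYH1-MYH2, the model of the fast myosin heavy chain genes, did not pass: it stood at 15738 to 55193 CPM in PB (median 28501), against 23549 to 44095 CPM in LDM (median 30272), a change of -0.076 ± 0.23 (adjusted p = 0.819). The table lists these myosins as a single gene, so a shift among them would not show. The member that rose, the kinase MYLK4, stood at 1.07 to 14.6 CPM in PB (median 4.41), against 1.34 to 4.08 CPM in LDM (median 1.88); its change of 1.27 ± 0.47 did not pass without PB7 (adjusted p = 0.111) or with limma-voom (adjusted p = 0.176).

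Ratios within a library, which need no scaling between libraries, gave the same direction for all 12 slow to fast pairs. The difference in mean log2 count ratio, PB minus LDM, ran from 2.29 for the essential light chains MYL3 to MYL1 up to 3.68 for MYOZ2 to MYOZ1 (two-sided permutation test with 100000 resamples, adjusted over 12 pairs; adjusted p = 5.45e-05 and 3e-05). The log2 ratio of TPM3 to TPM1, slow to fast tropomyosin, was -2.13 to 0.36 in PB (median -0.26), against -4.51 to -2.46 in LDM (median -3.49). That of MYBPC1 to MYBPC2 was -0.44 to 1.71 in PB (median 0.77), against -3.08 to -1.73 in LDM (median -2.15), and that of LDHB to LDHA, the heart and muscle forms of lactate dehydrogenase, was -8.56 to -5.02 in PB (median -6.70), against -11.84 to -8.97 in LDM (median -9.81). The cuts did not overlap in these ratios, nor for MYL2 to MYLPF and MYOZ2 to MYOZ1, and they overlapped for the other 7. Each of these 7 was higher in PB in 10 of 10 numbered pairs of libraries, except CASQ2 to CASQ1 with 9 of 10. No label ties these numbers to animals, and where cuts do not overlap such a count is fixed. Counted per base of gene length, the slow member made up a median of 58.3% in PB and 18.3% in LDM of the troponin T pair and 78.9% in PB and 32.4% in LDM of the regulatory light chain pair. All other pairs had lower PB medians, such as 41.6% for tropomyosin, 15.5% for troponin I and 0.568% for calsequestrin. The LDM medians of those pairs were 7.11%, 3.09% and 0.0982%. For troponin T the mean log2 ratio was -1.12 in HM and -0.17 in TM, and the PB median was -0.65.

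**Figure D2:**
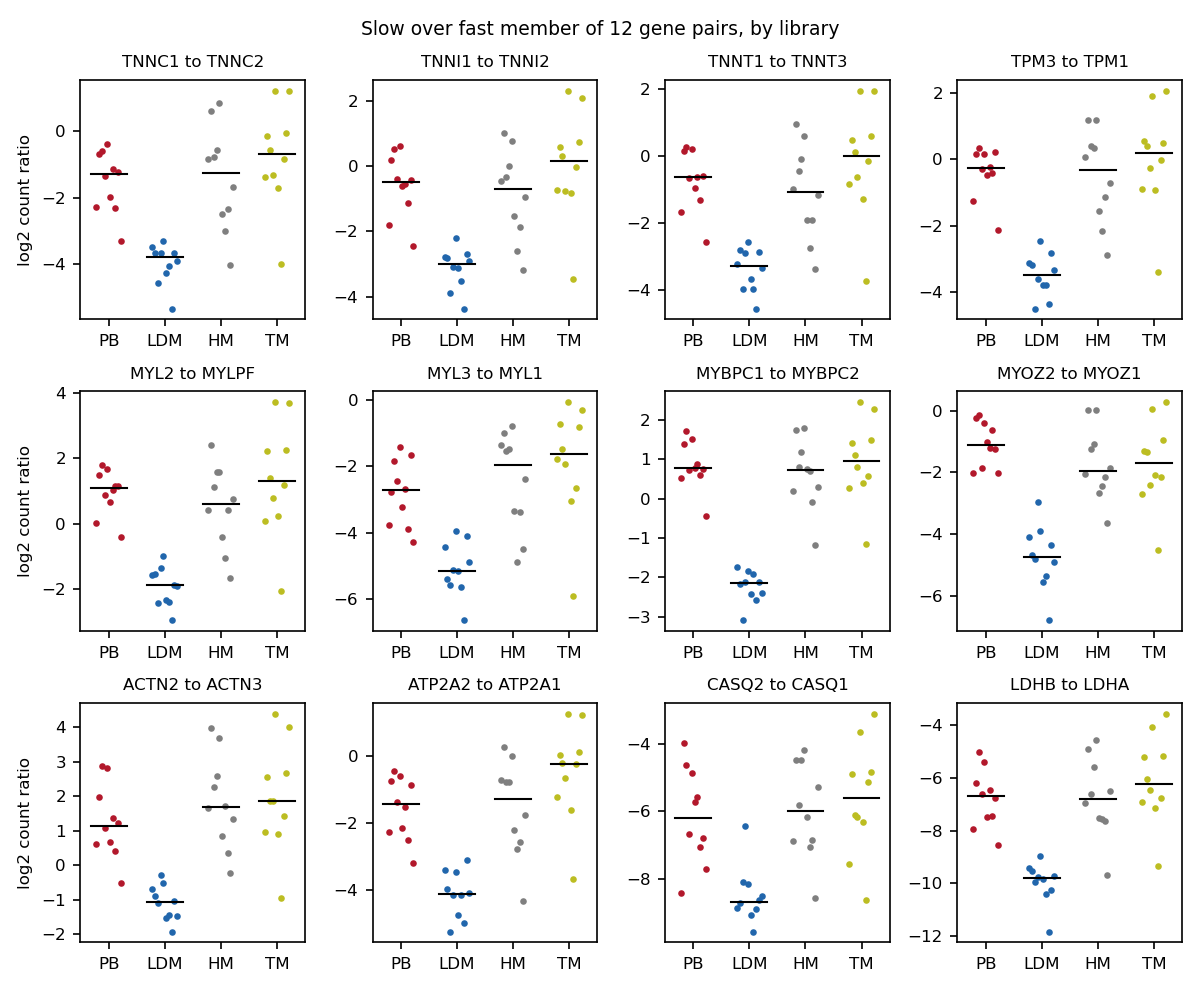
Log2 count ratio of the slow to the fast member of 12 gene pairs (vertical axis) in each library of PB, LDM, HM and TM; points are libraries and bars are medians. The PB median lies above the LDM median in every pair; for MYBPC1 to MYBPC2 the PB libraries run from -0.44 to 1.71 and the LDM libraries from -3.08 to -1.73.

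Of 41 tested regulators of fibre type, 9 rose and 8 fell, with a median of -0.077, shares at the background in both directions. PROX1, a homeobox factor that promotes the slow programme in mice and zebrafish, stood at 1.94 to 11.3 CPM in PB (median 5.07), against 0.715 to 2.67 CPM in LDM (median 1.87), and rose by 1.65 ± 0.33 (adjusted p = 0.000141). The orphan receptor ESRRB rose by 1.58 ± 0.32 (adjusted p = 0.000148), and ESRRG, which drives oxidative metabolism, by 2.36 ± 0.53 (adjusted p = 0.000549), with a change of 1.74 under limma-voom. Thyroid hormone receptor THRB rose by 1.22 ± 0.24 (adjusted p = 0.000112). MAFA and MAF, large Maf factors that promote fast myosin in mice, fell: MAFA stood at 2.61 to 12.4 CPM in PB (median 6.99), against 4.54 to 43.3 CPM in LDM (median 16), a change of -1.41 ± 0.36 (adjusted p = 0.00182), and MAF changed by -1.05 ± 0.29 (adjusted p = 0.00363). Also lower were PPARD, a nuclear receptor of fatty acid use, at -1.03 ± 0.22 (adjusted p = 0.00033), and PPP3R1, the regulatory subunit of calcineurin, at -0.93 ± 0.20 (adjusted p = 0.00025). PPARGC1A, the coactivator of mitochondrial biogenesis, did not pass and varied widely, at 25.9 to 518 CPM in PB (median 42.2), against 12.3 to 258 CPM in LDM (median 93.4). Myostatin, MSTN, a brake on muscle growth, did not pass either, with a change of 0.40 ± 0.38 (adjusted p = 0.42); it passed without LDM2 (adjusted p = 0.0491).

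Genes of excitation and calcium release fell more often than they rose: of 21 tested, 3 rose and 10 fell, with a median of -0.44. STAC3, an adaptor of the voltage sensor, stood at 336 to 496 CPM in PB (median 416), against 678 to 1122 CPM in LDM (median 764), and fell by 0.97 ± 0.13 (adjusted p = 2.97e-07) without overlap. The channel subunit CACNG1 fell by 1.14 ± 0.21 (adjusted p = 4.72e-05), and sarcolipin SLN, a brake on the calcium pump, fell by 1.02 ± 0.23 (adjusted p = 0.000531). Triadin, TRDN (ENSSSCG00000027613, chromosome 1 from 39180879 to 39567240), which anchors the calcium store to the release channel, went the other way at 465 to 1716 CPM in PB (median 762), against 65.6 to 375 CPM in LDM (median 212). It rose by 2.21 ± 0.32 (adjusted p = 9.75e-07) without overlap, and averaged 202 ± 86.3 CPM in HM and 181 ± 87.7 CPM in TM. Of 22 ion channels and pumps, 3 rose and 5 fell, or 36.4% called in either direction, against 41.7% of all genes tested. The water channel AQP4, which in rodents marks fast fibres, stood at 6.57 to 39.97 CPM in PB (median 13.3), against 0.388 to 6 CPM in LDM (median 3.64), and rose by 2.58 ± 0.44 (adjusted p = 1.53e-05) without overlap.

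Transcripts of several large filament and Z-disc proteins were higher in belly. Of 32 tested genes of the Z-disc and strain sensing list, 15 rose and 6 fell, with a median of 0.36. Nebulin, NEB (ENSSSCG00000016397, chromosome 15 from 546233 to 766131), the ruler of the thin filament, stood at 15441 to 22200.5 CPM in PB (median 17519.6), against 5082 to 12290.2 CPM in LDM (median 7259). It rose by 1.24 ± 0.16 (adjusted p = 2.27e-07), and the lowest PB library lay above the highest LDM library. XIRP2 (ENSSSCG00000015917, chromosome 15 from 73433932 to 73741041), an actin-binding protein of strained muscle, stood at 3411 to 35269.5 CPM in PB (median 12145), against 179.8 to 3463 CPM in LDM (median 629.6), and rose by 3.77 ± 0.51 (adjusted p = 3.82e-07), with the cuts just touching. LMOD2, which lengthens thin filaments, rose by 1.9995 ± 0.29 (adjusted p = 1.63e-06), nexilin NEXN by 2.21 ± 0.36 (adjusted p = 9.1e-06) and myotilin MYOT by 0.80 ± 0.14 (adjusted p = 1.3e-05). In the other direction, the Z-disc proteins MYPN and PDLIM7 changed by -0.86 ± 0.16 (adjusted p = 4.66e-05) and -0.79 ± 0.18 (adjusted p = 0.000514). Unlike the slow fibre genes, NEB and XIRP2 also stood above the other cuts. NEB averaged 5979 ± 1885 CPM in HM and 6076 ± 1133 CPM in TM, and PB was higher by 1.62 ± 0.17 over HM and 1.59 ± 0.17 over TM (adjusted p = 3.14e-09 and 6.21e-09). XIRP2 averaged 2095 ± 1111 CPM in HM and 1317 ± 479.6 CPM in TM, and PB was higher by 2.80 ± 0.49 over HM and 3.47 ± 0.50 over TM (adjusted p = 4.38e-05 and 3.02e-06). These contrasts use the same PB libraries as the one with LDM.

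Genes of glycolysis and glycogen use were lower in belly. Of 28 tested, 20 fell and 2 rose, with a median of -0.95. Phosphoglycerate kinase PGK1 stood at 164 to 723 CPM in PB (median 328), against 774 to 1276 CPM in LDM (median 942), and fell by 1.48 ± 0.26 (adjusted p = 1.93e-05) without overlap. Enolase ENO3 stood at 2545 to 14106 CPM in PB (median 5899), against 10808 to 22079.9 CPM in LDM (median 15021), a change of -1.14 ± 0.26 (adjusted p = 0.000579). Glycogen phosphorylase PYGM, which releases sugar from glycogen, stood at 5017 to 15716 CPM in PB (median 9635), against 11937 to 25328 CPM in LDM (median 16807), a change of -0.92 ± 0.22 (adjusted p = 0.00107). Phosphofructokinase PFKM changed by -1.41 ± 0.26, pyruvate kinase PKM by -1.43 ± 0.31, and the lactate exporter SLC16A3 by -1.64 ± 0.40 (adjusted p = 5.39e-05, 0.000345 and 0.00113). Glycogen synthase GYS1 also fell, at 410.2 to 644 CPM in PB (median 559), against 681 to 1535 CPM in LDM (median 1005), without overlap. The glycogen branching enzyme GBE1 rose by 1.29 ± 0.22 (adjusted p = 1.76e-05), and hexokinase HK2, which traps glucose in the cell, by 1.99 ± 0.70 (adjusted p = 0.02); HK2 did not pass without PB8 (adjusted p = 0.0711). PGK1 averaged 376 ± 147 CPM in HM and 285 ± 173 CPM in TM, and PB differed by -0.13 ± 0.25 over HM and 0.27 ± 0.25 over TM (adjusted p = 0.753 and 0.457).

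Genes of fat oxidation were higher in belly. Of 27 tested genes for taking up and oxidising fatty acids, 18 rose and 2 fell, with a median of 0.64. DECR1, which handles unsaturated fatty acids in mitochondria, stood at 55.4 to 86.7 CPM in PB (median 64.6), against 7.03 to 28.3 CPM in LDM (median 19.7), and rose by 1.75 ± 0.18 (adjusted p = 9.99e-10) without overlap. ACAA2 and HADHB, enzymes of the last steps of beta-oxidation, rose by 1.38 ± 0.19 (adjusted p = 6.12e-07) and 1.19 ± 0.19 (adjusted p = 6.6e-06), both without overlap. The medium-chain dehydrogenase ACADM rose by 1.66 ± 0.21 (adjusted p = 9.47e-08). Uptake genes rose too: the fatty acid transporter CD36 stood at 205 to 578 CPM in PB (median 419), against 77.4 to 212 CPM in LDM (median 154), a change of 1.45 ± 0.19 (adjusted p = 1.97e-07), lipoprotein lipase LPL changed by 1.47 ± 0.32 (adjusted p = 0.000316) and the mitochondrial carnitine transferase CPT1B by 1.02 ± 0.19 (adjusted p = 6.33e-05). The uncoupling protein UCP3 fell by 1.20 ± 0.39 (adjusted p = 0.0137). The list's other fall, the transporter SLC27A4, changed by -0.56 ± 0.19 (adjusted p = 0.0185), and did not pass without LDM1 or LDM7 (adjusted p = 0.058 and 0.0783).

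Lipid droplet genes split: of 20 tested, 6 rose and 2 fell. PLIN5, which couples droplets to mitochondria in muscle, stood at 14 to 64 CPM in PB (median 41.9), against 4.89 to 13.5 CPM in LDM (median 8.86), and rose by 2.29 ± 0.31 (adjusted p = 3.82e-07) without overlap. MLXIPL, a sugar-sensing activator of lipid synthesis, rose by 2.68 ± 0.47 (adjusted p = 2.27e-05), and GPAM, the first step of triglyceride assembly, by 1.86 ± 0.32 (adjusted p = 2.17e-05). Among markers of fat cells, of 10 tested, 0 rose and 1 fell, and their summed level was 91.3 to 368 CPM in PB (median 199), against 115 to 359.9 CPM in LDM (median 207). The fat cell hormone ADIPOQ stood at 1.64 to 57 CPM in PB (median 15.8), against 3.09 to 39.8 CPM in LDM (median 19.6), a change of 0.13 ± 0.57 (adjusted p = 0.874). Fatty acid synthase FASN and the desaturase SCD did not pass, with changes of -0.30 ± 0.28 (adjusted p = 0.405) and 0.002 ± 0.38 (adjusted p = 0.997). The marker that fell, the protease CFD, changed by -0.85 ± 0.17 (adjusted p = 0.000154).

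Genes for breaking down branched-chain amino acids and ketone bodies rose more often than they fell: of 21 tested, 12 rose and 2 fell, with a median of 0.52. ACADSB, a dehydrogenase of branched acyl chains, stood at 82.5 to 146 CPM in PB (median 112), against 47.9 to 69.7 CPM in LDM (median 62.3), and rose by 0.88 ± 0.11 (adjusted p = 1.22e-07) without overlap. ACAT1, the thiolase of ketone use, rose by 1.06 ± 0.14 (adjusted p = 4.55e-07), and DBT, a subunit of the branched-chain dehydrogenase, by 1.57 ± 0.26 (adjusted p = 9.78e-06). BCAT2, the transaminase that starts the pathway in muscle, fell by 0.42 ± 0.14 (adjusted p = 0.0174), and did not pass without LDM1 (adjusted p = 0.0513). In the citric acid cycle and its pyruvate entry, of 25 tested, 9 rose and 1 fell, with 0 to 2 falling as single libraries were left out. DLD, a subunit that several dehydrogenase complexes share, rose by 1.11 ± 0.17 (adjusted p = 2.13e-06), and PDHA1, the catalytic subunit of pyruvate dehydrogenase, by 0.75 ± 0.14 (adjusted p = 5.89e-05).

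The transcripts of the mitochondrial genome had the highest median change of all lists examined. They made up 9.31% to 16.2% of all counts in PB (median 12.7%), against 3.63% to 6.05% in LDM (median 5.196%), with no overlap. The difference in means was 7.52 percentage points (two-sided permutation test over 20 libraries with 100000 resamples, p = 2e-05). The mean share was 9.12% in HM and 7.53% in TM. All 12 tested rose, with a median of 2.21. ND2, a subunit of complex I, where electrons enter the chain, stood at 3856 to 8488 CPM in PB (median 6339), against 404 to 1133 CPM in LDM (median 775), and rose by 2.93 ± 0.20 (adjusted p = 7.52e-14). ND5 stood at 3633 to 19906 CPM in PB (median 10316), against 599.8 to 2116 CPM in LDM (median 1085), a change of 3.28 ± 0.26 (adjusted p = 1.7e-12), and ATP6 of ATP synthase at 7598 to 13718 CPM in PB (median 11214), against 1282 to 3166 CPM in LDM (median 2339.7), a change of 2.30 ± 0.16 (adjusted p = 1.7e-13). COX1, of the terminal oxidase, rose least, by 0.69 ± 0.14 (adjusted p = 0.000228), at 25248 to 51914 CPM in PB (median 37532), against 15131 to 30052 CPM in LDM (median 22406). Only COX1 overlapped between the cuts.

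The make-up of the mitochondrial transcripts differed as well, whatever their total. Of the mitochondrial counts, COX1 took 21.9% to 31% in PB (median 27.9%), against 39.4% to 51.7% in LDM (median 46.3%). COX3 took 14.4% to 19% in PB (median 17%), against 20.02% to 27.4% in LDM (median 23.4%). ND5 and ND4 of complex I took more: ND5 had 3.03% to 12.8% in PB (median 8.01%), against 1.43% to 3.64% in LDM (median 2.11%), and ND4 had 11.6% to 15.2% in PB (median 13.2%), against 4.77% to 10.8% in LDM (median 6.64%). The shares of COX1, COX3, ND2, ND4, COX2 and ATP6 did not overlap between the cuts. ND5, ND2 and ND4 were also higher in PB than in the other cuts: ND4 averaged 8049 ± 2127 CPM in HM and 5428 ± 2077 CPM in TM, and PB was higher by 1.20 ± 0.20 over HM and 1.77 ± 0.20 over TM (adjusted p = 1.6e-05 and 2.24e-08). COX1 did not pass there, with PB changes of 0.0046 ± 0.14 over HM and 0.25 ± 0.14 over TM (adjusted p = 0.985 and 0.211). The contrasts with HM and TM use the same PB libraries as the one with LDM. ND6, the subunit read from the opposite strand, rose by 3.36 ± 0.37 (adjusted p = 6.72e-09) and by 2.68 under limma-voom; the strand setting used for counting is not stated, so its reads cannot be told from antisense reads. Nuclear copies of mitochondrial genes may also share reads with them.

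**Figure D3:**
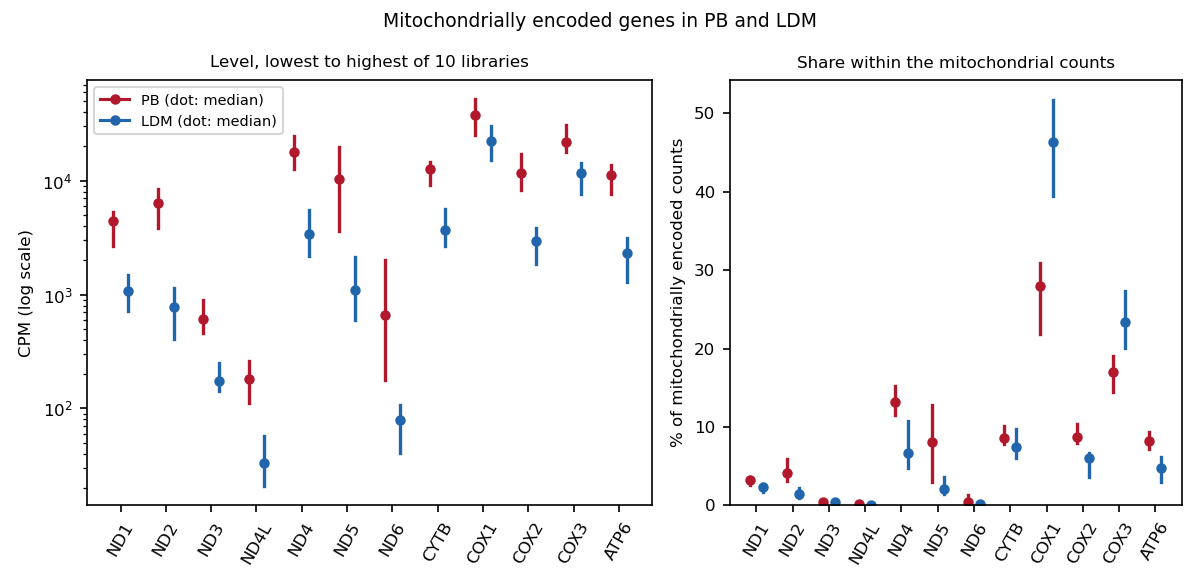
Left, level in CPM (log axis) of 12 mitochondrially encoded genes in PB and LDM; right, share of the mitochondrial counts in percent. Lines run from the lowest to the highest of 10 libraries and dots are medians; every gene is higher in PB, while the share of COX1 falls to a median of 27.9% in PB, against 46.3% in LDM.

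Nuclear partners of the respiratory chain did not move to the same extent. Of 66 tested, 13 rose and 2 fell (1 to 4 as single libraries were left out), near the background for gains, with a median of 0.12; with a correction for gene length 21 rose. NDUFA4 stood at 154 to 261 CPM in PB (median 201), against 89.6 to 159 CPM in LDM (median 134), and rose by 0.64 ± 0.11 (adjusted p = 1.82e-05). Among the factors that express the mitochondrial genome, of 29 tested, 9 rose and 7 fell. PNPT1, an RNA-degrading enzyme of mitochondria, stood at 11.4 to 22.5 CPM in PB (median 14.7), against 1.71 to 6.76 CPM in LDM (median 4.4), and rose by 1.85 ± 0.20 (adjusted p = 6e-09). LRPPRC, which stabilises mitochondrial messages, rose by 1.001 ± 0.17 (adjusted p = 1.23e-05), and both lacked overlap. TFAM, which packages and transcribes mitochondrial DNA, rose by 0.56 ± 0.19 (adjusted p = 0.0183), while the polymerase POLG, which copies that DNA, fell by 0.42 ± 0.12 (adjusted p = 0.00452). Mitochondrial ribosomal proteins fell more often than they rose: of 70 tested, 8 rose and 29 fell. These genes are short, with a median of 2330 bases, and with a correction for gene length 9 rose and 21 fell. When scaling left the mitochondrially encoded genes out, 11 rose and 24 fell. MRPS26 stood at 28.8 to 42.7 CPM in PB (median 38.5), against 52.8 to 82.1 CPM in LDM (median 61.2), and fell by 0.78 ± 0.10 (adjusted p = 6.26e-08), while MRPL1 rose by 1.23 ± 0.19 (adjusted p = 2.21e-06). Of 25 genes of mitochondrial shape and protein import, 4 rose and 6 fell, or 3 without LDM7. The fusion proteins OPA1 and MFN1 rose by 1.40 ± 0.22 (adjusted p = 3.56e-06) and 0.88 ± 0.17 (adjusted p = 8.63e-05), and the import receptor TOMM22 fell by 0.61 ± 0.08 (adjusted p = 4.06e-07).

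Cytosolic ribosomal proteins and the proteasome were lower in belly. Of 67 cytosolic ribosomal proteins, 43 fell and 0 rose, with a median of -0.36. RPS16 stood at 55.3 to 96.6 CPM in PB (median 80.2), against 124 to 184 CPM in LDM (median 151), and fell by 0.98 ± 0.10 (adjusted p = 2.13e-09) without overlap. RPLP1 fell by 0.78 ± 0.10 (adjusted p = 1.84e-07), also without overlap. These genes are short, and with a correction for gene length 29 fell and 2 rose. Translation factors moved both ways, with 11 of 56 higher and 25 lower. EIF5B, which joins the ribosomal subunits, stood at 102 to 222 CPM in PB (median 135), against 13.2 to 49.7 CPM in LDM (median 27.3), and rose by 2.19 ± 0.21 (adjusted p = 2.75e-10). The elongation factor subunit EEF1B2 fell by 0.71 ± 0.09 (adjusted p = 6.7e-08), and neither overlapped. The proteasome, which degrades tagged proteins, had 26 of 42 tested members lower and 2 higher, with a median of -0.42 and 24 lower after the length correction. PSMD13 stood at 56.1 to 75.4 CPM in PB (median 60.6), against 75.9 to 121 CPM in LDM (median 95.1), and fell by 0.63 ± 0.09 (adjusted p = 6.27e-07) without overlap.

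The other turnover lists differed in their counts. Of 31 ubiquitin ligases and autophagy genes, 3 rose and 8 fell. The autophagy receptor SQSTM1 stood at 619 to 988 CPM in PB (median 799.5), against 995 to 3086 CPM in LDM (median 1726), and fell by 1.16 ± 0.14 (adjusted p = 5.32e-08) without overlap. Of 10 genes of the calpain system, the calcium-driven proteases that tenderise meat after slaughter, 7 fell and 2 rose. Calpain CAPN1 stood at 40.2 to 82.8 CPM in PB (median 66.6), against 76 to 129.6 CPM in LDM (median 92.1), a change of -0.57 ± 0.14 (adjusted p = 0.00131). Its inhibitor calpastatin, CAST, stood at 141 to 295 CPM in PB (median 190.3), against 60.8 to 169.8 CPM in LDM (median 127), a change of 0.71 ± 0.17 (adjusted p = 0.00076). Both overlapped between the cuts. Of 22 heat shock genes, 3 rose and 2 fell, well under the background; 1 rose when PB3, PB5, PB8, LDM6 or LDM10 was left out. Their median was 0.082, but -0.18 without PB8. Under limma-voom, fitted throughout with quality weights per library, the median was -0.38, with 1 rising and 5 falling. The small heat shock protein HSPB6 rose by 1.48 ± 0.31 (adjusted p = 0.000205).

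Energy buffering and redox genes moved both ways. Of 19 genes of creatine and purine buffering, 4 rose and 6 fell. The creatine transporter SLC6A8 stood at 266 to 465 CPM in PB (median 362), against 581 to 1329 CPM in LDM (median 800.3), and fell by 1.25 ± 0.14 (adjusted p = 1.42e-08) without overlap. Adenylate kinase AK1 fell by 1.32 ± 0.30 (adjusted p = 0.000589), and NNT, which makes NADPH in mitochondria, rose by 0.91 ± 0.15 (adjusted p = 6.95e-06). Of 24 antioxidant genes, 1 rose and 7 fell, and 4 fell when LDM1, LDM5 or LDM7 was left out. The selenoprotein GPX3 fell by 0.82 ± 0.22 (adjusted p = 0.00254). Of 22 genes of haem and iron handling, 3 rose and 2 fell, and ferritin light chain FTL fell by 0.56 ± 0.14 (adjusted p = 0.00207); 5 rose without PB10 or LDM1. Myoglobin was not analysed here.

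Among genes whose PB and LDM libraries did not overlap, the 10 highest by change were SBK2, NPR3, RSPO3, RFLNA, GOLGA4, TECRL, ND6, ND5, KTN1 and ESF1. TECRL, an enzyme of the endoplasmic reticulum, rose by 3.97 ± 0.36 (adjusted p = 5.62e-11). SBK2 (ENSSSCG00000033532, chromosome 6 from 59672295 to 59677670), a serine/threonine kinase, stood at 2.44 to 135 CPM in PB (median 46.9), against 0.182 to 0.639 CPM in LDM (median 0.376), a change of 7.07 ± 0.95 (adjusted p = 3.56e-07) and of 5.85 under limma-voom. RSPO3 (ENSSSCG00000004218, chromosome 1 from 35984949 to 36067079), a secreted amplifier of WNT signals, stood at 9.72 to 85.5 CPM in PB (median 21.6), against 0.521 to 2.62 CPM in LDM (median 1.18), a change of 4.79 ± 0.58 (adjusted p = 6.49e-08) and of 4.10 under limma-voom. GOLGA4 (ENSSSCG00000011243, chromosome 13 from 22125121 to 22250466), a Golgi tethering protein, stood at 52.8 to 99.8 CPM in PB (median 73.4), against 1.36 to 9.72 CPM in LDM (median 3.69), and rose by 4.15 ± 0.30 (adjusted p = 1.7e-13). KTN1, an anchor of kinesin motors, stood at 145 to 512 CPM in PB (median 255), against 6.44 to 73.3 CPM in LDM (median 22.7), and rose by 3.25 ± 0.34 (adjusted p = 2.96e-09). ESF1, a factor of ribosome assembly, stood at 12.4 to 39.3 CPM in PB (median 20.2), against 0.647 to 4.99 CPM in LDM (median 2.11), and rose by 3.11 ± 0.31 (adjusted p = 7.1e-10).

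These genes were not placed alike among the 4 cuts. GOLGA4 averaged 5.13 ± 2.54 CPM in HM and 6.03 ± 1.53 CPM in TM, levels near LDM, and PB was higher by 3.88 ± 0.29 over HM and 3.64 ± 0.29 over TM (adjusted p = 9.8e-13 and 4.88e-12). KTN1 averaged 45.2 ± 15.4 CPM in HM and 36.1 ± 12 CPM in TM, and PB was higher by 2.66 ± 0.33 over HM and 2.98 ± 0.34 over TM (adjusted p = 2.49e-07 and 3.33e-08). ESF1 averaged 5 ± 1.73 CPM in HM and 3.21 ± 1.52 CPM in TM, and PB was higher by 2.17 ± 0.30 over HM and 2.80 ± 0.30 over TM (adjusted p = 9.4e-07 and 1.21e-08). The genes were picked with the same PB libraries that these contrasts use, so the p-values are not independent of that choice. SBK2 averaged 11 ± 11 CPM in HM and 29.4 ± 30.2 CPM in TM, and RFLNA, a filamin-binding protein, averaged 17 ± 13 CPM in HM and 83.3 ± 87.5 CPM in TM, with 17.7 to 83.6 CPM in PB (median 27.6), against 0.319 to 2.94 CPM in LDM (median 1.5), so that LDM held the lowest mean of RFLNA. For GOLGA4, KTN1 and ESF1, every PB library lay above every library of the other 3 cuts, and the deposited lengths of these genes were 7745, 8509 and 3176 bases. After the length correction, the change of GOLGA4 was 4.06, that of KTN1 3.16 and that of ESF1 3.15, and each passed.

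The 10 lowest of the non-overlapping genes were HOXC10, IGFN1, FAM222A, MAMLD1, ZIC1, STARD10, SPRY3, SLC7A5, WNT9A and PRR33. IGFN1 (ENSSSCG00000036948, chromosome 10 from 23628979 to 23660631), a giant protein of the Z-disc region, stood at 42.1 to 3359 CPM in PB (median 561), against 4369 to 10378 CPM in LDM (median 5995). It fell by 3.21 ± 0.75 (adjusted p = 0.000731), and without PB10 the change was -3.99. STARD10 (ENSSSCG00000014818, chromosome 9 from 7302814 to 7332771), a lipid transfer protein, stood at 3.91 to 14.8 CPM in PB (median 8.64), against 22.9 to 57.2 CPM in LDM (median 37), and fell by 2.16 ± 0.26 (adjusted p = 3.99e-08). The amino acid importer SLC7A5 stood at 7.2 to 36.8 CPM in PB (median 14.5), against 39.7 to 98.5 CPM in LDM (median 60.9), and fell by 1.82 ± 0.34 (adjusted p = 4.59e-05). MAMLD1, a coactivator linked to NOTCH signals, fell by 2.34 ± 0.32 (adjusted p = 5.93e-07), and FAM222A fell by 2.51 ± 0.35 (adjusted p = 7.53e-07). Smaller falls were those of SPRY3, -1.99 ± 0.36, and PRR33, -1.55 ± 0.27. Of the 4 cuts, LDM held the highest mean of IGFN1, STARD10, SLC7A5, MAMLD1 and FAM222A. IGFN1 averaged 423 ± 340.5 CPM in HM and 1069.9 ± 1240.4 CPM in TM, and PB differed by 0.74 ± 0.69 over HM and -0.60 ± 0.69 over TM (adjusted p = 0.451 and 0.56). STARD10 averaged 10.7 ± 3.94 CPM in HM and 12.5 ± 6.14 CPM in TM, and SLC7A5 averaged 15.6 ± 9.26 CPM in HM and 13.7 ± 8.37 CPM in TM. HOXC10, a positional gene of the trunk and hind limb, was an exception, at 0 to 3.26 CPM in PB (median 0.706), against 5.19 to 99.97 CPM in LDM (median 13.7), and 54.6 ± 16.9 CPM in HM and 0.331 ± 0.738 CPM in TM.

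**Figure D4:**
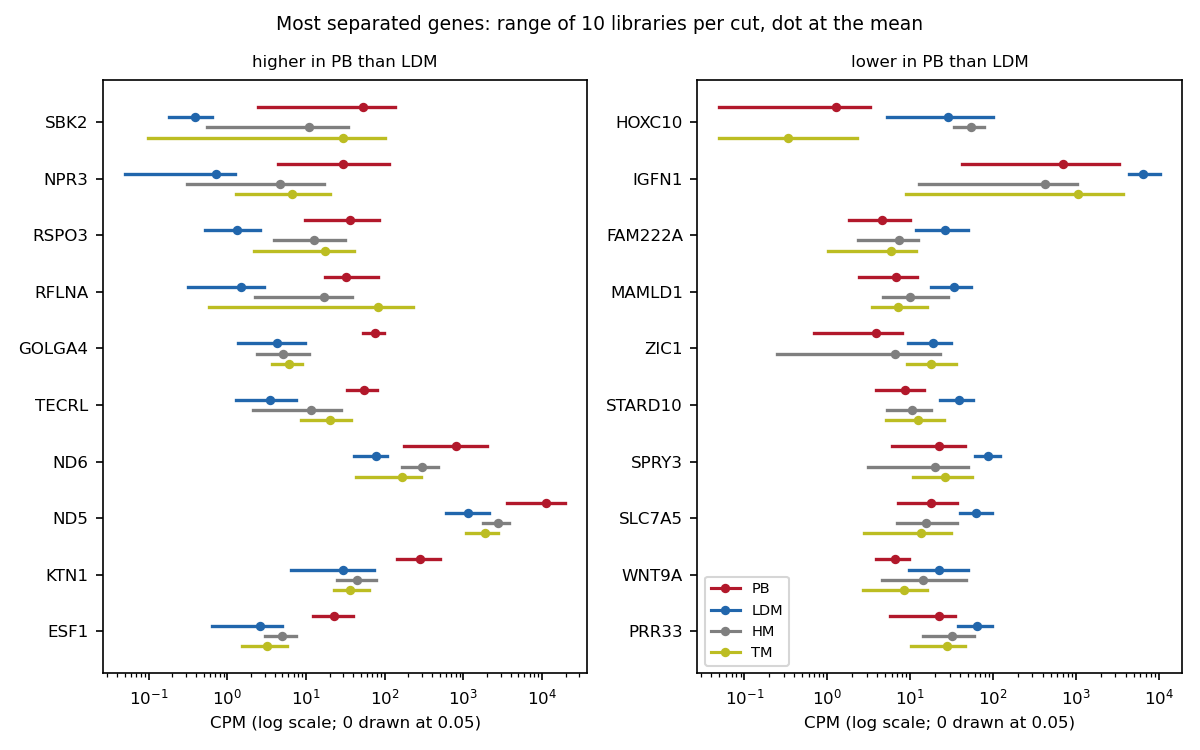
Range of CPM over 10 libraries per cut (log axis, 0 drawn at 0.05) for the 10 genes highest and the 10 lowest in PB against LDM among those that did not overlap; dots are means. GOLGA4, KTN1 and ESF1 are high in PB alone, while for IGFN1, STARD10 and SLC7A5 the LDM range lies above the other 3.

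Signalling genes moved both ways. Of 27 insulin and IGF genes, 5 rose and 5 fell, or 3 without LDM7, LDM8 or LDM9. PIK3CA, the catalytic subunit of PI3-kinase, stood at 41.8 to 99.4 CPM in PB (median 52.4), against 4.45 to 29.9 CPM in LDM (median 14.9), and rose by 1.81 ± 0.28 (adjusted p = 3.01e-06) without overlap. DDIT4, a brake on mTOR, fell by 1.23 ± 0.33 (adjusted p = 0.00323). Of 31 WNT genes, 8 rose and 8 fell. APC, a scaffold that marks beta-catenin for destruction, stood at 40.5 to 74.8 CPM in PB (median 63.7), against 6.13 to 30.4 CPM in LDM (median 17.7), and rose by 1.81 ± 0.22 (adjusted p = 4.66e-08), while the ligand WNT9A fell by 1.73 ± 0.34 (adjusted p = 0.000128), both without overlap. Of 37 myostatin and BMP genes, 9 rose and 1 fell. The BMP receptors BMPR1A and BMPR2 rose by 1.11 ± 0.20 (adjusted p = 2.36e-05) and 0.84 ± 0.16 (adjusted p = 7.8e-05), and the ligand GDF11 fell by 1.65 ± 0.29 (adjusted p = 1.85e-05), at 0.146 to 0.838 CPM in PB (median 0.503), against 0.782 to 2.55 CPM in LDM (median 1.28).

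Natriuretic peptides and nitric oxide act through cyclic GMP. Of 15 genes of that pathway, 4 rose and 1 fell. The clearance receptor NPR3 (ENSSSCG00000036201, chromosome 16 from 18842039 to 18929813) stood at 4.37 to 113 CPM in PB (median 11.7), against 0 to 1.24 CPM in LDM (median 0.741), and rose by 5.36 ± 0.77 (adjusted p = 1.17e-06), or 4.52 under limma-voom. The kinase PRKG1 rose by 3.07 ± 0.70 (adjusted p = 0.000644); without PB8 the change was 2.43, and without LDM2 it was 4.29. The nitric oxide synthase of muscle, NOS1, fell by 1.40 ± 0.30 (adjusted p = 0.000274). Of 22 hypoxia and vessel growth genes, 5 rose and 3 fell, the gains numbering 3 without PB3, 8 without PB10 or LDM5 and 9 without LDM7, and the falls 5 without PB5. The vessel growth factor ANGPT1 rose by 2.003 ± 0.39 (adjusted p = 9.71e-05), at 0.629 to 1.57 CPM in PB (median 0.858), against 0 to 0.595 CPM in LDM (median 0.141). Of 21 clock genes, 3 rose and 2 fell, or 4 without PB10. Of 22 immediate early genes, which respond to stress within minutes, 3 rose and 1 fell, with 2 to 5 rising and 0 to 3 falling as single libraries were left out. Their median was 0.087, and -0.22 under limma-voom.

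Genes of nerve contact, stem cells and RNA splicing were counted next. Of 16 genes of the neuromuscular junction, 3 rose and 5 fell. Utrophin, UTRN, which links the junction's membrane to actin, rose by 1.21 ± 0.21 (adjusted p = 2.8e-05), and the receptor subunit CHRNA1 by 1.45 ± 0.36 (adjusted p = 0.0013). Of 18 genes of satellite cells and myogenesis, 0 rose and 2 fell, with 0 to 5 falling as single libraries were left out. Of 17 cell cycle genes, 0 rose and 4 fell, and GTSE1 of the dividing spindle, at 0 to 1.62 CPM in PB (median 0.332), against 0.849 to 11.3 CPM in LDM (median 2.54), fell by 2.92 ± 0.55 (adjusted p = 6.35e-05). Of 25 splicing regulators, 5 rose and 4 fell. MBNL1, which sets adult splice forms in muscle, rose by 1.16 ± 0.25 (adjusted p = 0.00032), and CELF1, its known antagonist, fell by 1.78 ± 0.44 (adjusted p = 0.00133), at 0.881 to 10.6 CPM in PB (median 3.68), against 8.55 to 35.5 CPM in LDM (median 14.6).

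Extracellular matrix genes rose often in belly, and their count moved with PB1. Of 39 tested matrix and tendon genes, 18 rose and 0 fell, with a median of 0.73; 11 rose without PB1, and 25 without PB8. The summed level of the list was 1498 to 5158 CPM in PB (median 2418), against 1177 to 2216 CPM in LDM (median 2051). PB1 held the highest sum at 5158 CPM. Osteoglycin, OGN, a small proteoglycan, stood at 4.95 to 148 CPM in PB (median 18.8), against 1.79 to 10.2 CPM in LDM (median 3.99), and rose by 2.87 ± 0.55 (adjusted p = 7.06e-05). Asporin, ASPN, its relative in tendon, rose by 2.77 ± 0.50 (adjusted p = 3.21e-05), and LOX, which cross-links collagen, by 1.997 ± 0.50 (adjusted p = 0.00165). Of 30 tested collagen genes, 6 rose and 2 fell, at the background share for gains, with 3 rising without PB1. COL8A1, a collagen of vessel walls, rose by 1.90 ± 0.43 (adjusted p = 0.000521). COL12A1, which coats collagen fibrils, rose by 2.06 ± 0.53 (adjusted p = 0.00187), or 1.37 without PB1 and 1.21 under limma-voom. The main fibrillar chains COL1A1 and COL3A1 stood at changes of 0.72 ± 0.39 (adjusted p = 0.139) and 0.19 ± 0.32 (adjusted p = 0.66); COL1A1 passed without PB8 (adjusted p = 0.0474). Fibro-adipogenic progenitors are the cells that lay down this matrix. Of 17 of their markers, 3 rose and 0 fell, 5 rising without PB8, and the sum was 466 to 3335 CPM in PB (median 1563), against 947 to 2089.8 CPM in LDM (median 1575), with PB1 highest. The part of this cell type in the matrix genes was not tested.

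Each list of the other cell types held 0 to 3 calls. Of 13 endothelial markers, 3 rose and 0 fell, 5 rising without LDM7, and their sum was 389 to 1007 CPM in PB (median 534), against 393 to 593 CPM in LDM (median 494). EMCN of capillaries stood at 10.9 to 22 CPM in PB (median 13.1), against 5.86 to 11.4 CPM in LDM (median 8.15), a change of 0.78 ± 0.16 (adjusted p = 0.000215). Of 11 smooth muscle and pericyte markers, 1 rose and 0 fell, RGS5 rising by 1.07 ± 0.19 (adjusted p = 3.04e-05). Desmin, DES, which muscle fibres also make, held most of the list's sum, at 8820 to 15522 CPM in PB (median 11195), against 6320 to 13634 CPM in LDM (median 9093). Smooth muscle actin ACTA2 was at 70.5 to 256 CPM in PB (median 177), against 119.7 to 340.4 CPM in LDM (median 196), and overlapped. Schwann cells wrap motor nerves in myelin. Of 8 of their markers, 2 fell and 0 rose, or 25%, near the 21.2% of all genes tested that fell. Their summed level was 74.8 to 147 CPM in PB (median 91.8), against 122 to 269 CPM in LDM (median 181). MBP, a myelin protein, had the list's highest median in LDM. It stood at 14.5 to 78.9 CPM in PB (median 36.8), against 68.1 to 159 CPM in LDM (median 93.3), a change of -1.35 ± 0.31 (adjusted p = 0.000627). Of 12 myeloid markers, 2 rose and 0 fell, or 0 to 2 and 0 to 1 as single libraries were left out. Their sum was 51 to 374 CPM in PB (median 105), against 34.9 to 207 CPM in LDM (median 112). Of 4 lymphocyte markers, 2 rose and 0 fell, with a sum of 9.02 to 46 CPM in PB (median 10.7), against 5.35 to 14.9 CPM in LDM (median 9.11). PB8 held the top myeloid and lymphocyte sums, 374 and 46.0 CPM, against PB medians of 105 and 10.7 CPM. Without PB8, 0 myeloid markers rose and 1 fell, as under limma-voom, and 1 lymphocyte marker rose. Without PB2, 0 myeloid markers rose. The heat shock sum was 43994 CPM in PB8 and 38662 CPM in PB5, against a PB median of 13554 CPM, and reached 31174 CPM in LDM2. The immediate early sum was 7025 CPM in PB8 and 6684 CPM in PB5, against a PB median of 2527 CPM. Of 1 red blood cell marker tested, 0 passed, and of 5 skin markers, 2 fell and 0 rose, with a sum of 15.2 to 52.7 CPM in PB (median 32.8), against 26.4 to 107 CPM in LDM (median 55.2). The lysozyme LYZ, CD3G of T cells and the keratins KRT1, KRT5 and KRT15 had 0 counts in all 20 libraries. Of 29 antigen presentation and interferon genes, 2 rose (2 to 4 as single libraries were left out) and 1 fell, with IFIT1, an interferon target, higher by 1.17 ± 0.26 (adjusted p = 0.000441).

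**Figure D5:**
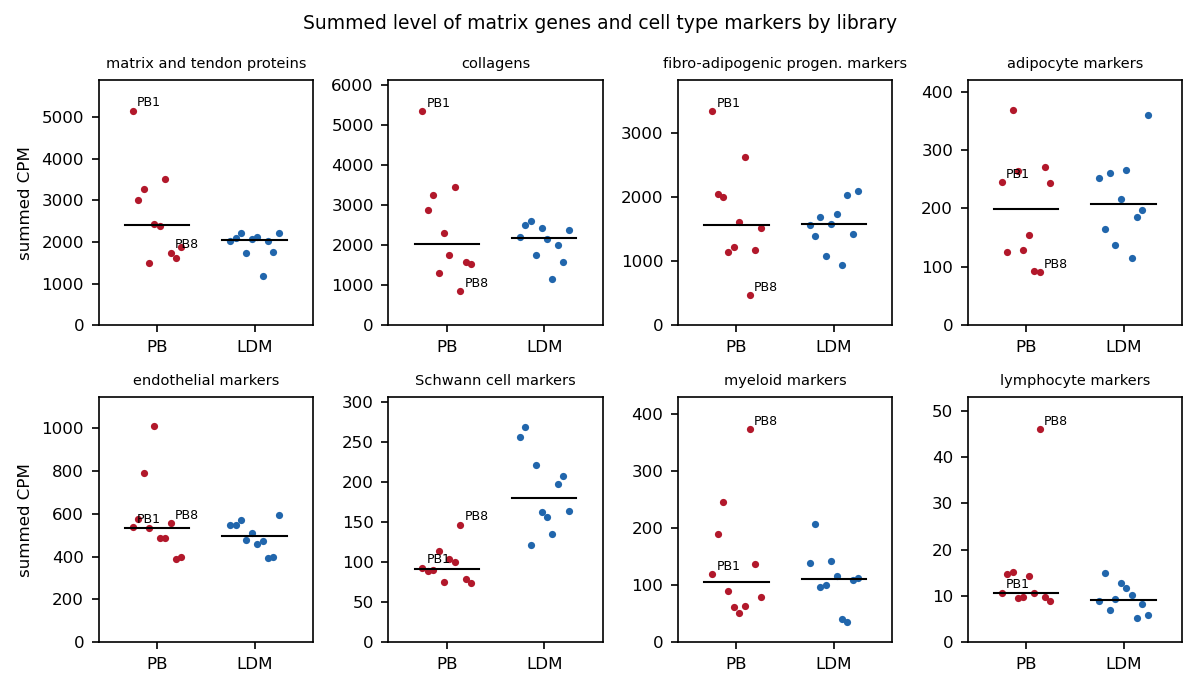
Summed CPM (vertical axis, from 0) of matrix genes, collagens and 6 cell type marker lists in each PB and LDM library; points are libraries, bars are medians, and PB1 and PB8 are named. PB1 is highest for the matrix, collagen and fibro-adipogenic progenitor sums, PB8 for the myeloid and lymphocyte sums, and the Schwann cell sum is 74.8 to 147 CPM in PB, against 122 to 269 CPM in LDM.

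Genes of body position keep in adult muscle a trace of where it formed. Of 25 tested HOX genes, 4 fell and 1 rose (3 to 6 and 1 to 2 as single libraries were left out). Of 20 other positional factors, 8 rose and 1 fell (1 to 3 as single libraries were left out). HOXC9, a HOX gene of the thorax, fell by 1.59 ± 0.50 (adjusted p = 0.00974), and ZIC1, a zinc finger factor of the dorsal body, stood at 0.694 to 7.89 CPM in PB (median 3.96), against 9.34 to 30.9 CPM in LDM (median 17.9), a change of -2.27 ± 0.50 (adjusted p = 0.000415) without overlap. PRRX1 (ENSSSCG00000031503, chromosome 4 from 80427685 to 80501646), a homeobox factor of limb and body wall mesenchyme, stood at 86.7 to 349 CPM in PB (median 137), against 17.9 to 78.5 CPM in LDM (median 38.4), and rose by 2.01 ± 0.31 (adjusted p = 2.69e-06) without overlap. IRX3, an Iroquois factor, rose by 2.73 ± 0.57 (adjusted p = 0.000249). IRX3 averaged 0.82 ± 0.358 CPM in HM and 76.1 ± 72.5 CPM in TM, so PB and TM were the high cuts for it. ZIC1 averaged 6.58 ± 7.27 CPM in HM and 18.1 ± 7.84 CPM in TM.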

How the data were processed

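Whole-tissue RNA from 4 cuts of Chalu black pig was sequenced from stranded libraries, per the labels' protocols. Per the submitters' processing notes, reads were handled with HTSeq 0.9.1, HISAT2 2.0.5 and cutadapt 1.15 on the Sscrofa11.1 build. Whether counting used strand is not stated, so overlapping and antisense genes cannot be told apart, and near-identical paralogues may share reads. The deposited table holds whole-number counts per gene, made by the authors, for 21280 genes in 40 libraries. The authors' deposited FPKM values equalled these counts scaled by library total and gene length within a relative tolerance of 0.001 for 100% of values, and only the counts were used. No line lacked a gene. Symbols came from the table for 14883 genes and from RefSeq names for 1334 more.

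Libraries were grouped by title. Genes kept by edgeR's filterByExpr were fitted with edgeR 4.0.16 (TMM scaling, robust quasi-likelihood test) over all 40 libraries, with a term for the cut alone, and PB minus LDM was tested with Benjamini-Hochberg adjustment over 11713 genes. CPM were scaled by TMM factors. Ratios used a pseudocount of 0.5. A list was described by its counts and median, with no set test. Alternatives were DESeq2 1.42.0, other scalings and filters, and limma 3.58.1 voom with quality weights per library, called limma-voom here. Further alternatives were the 20 libraries alone, the library number as a block, and each of the 20 libraries left out. A gene length offset (a lowess curve per library) and the contrasts of PB with HM and TM were added after seeing the data. The fit was tested on simulated data. Within PB and within LDM, no 2 libraries were alike within sampling noise. The lowest chi-square per gene was 30.0 over genes of at least 20 counts. Libraries of different cuts were not compared in this way.

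The named genes were the 10 highest and 10 lowest of the called genes with at least 10 CPM whose libraries did not overlap, the 8 largest rises and falls of mean CPM, up to 3 members per list and direction by adjusted p, the genes of the slow to fast pairs and a few preset metabolic genes. Genes discussed beyond these were chosen after their values were seen. The comparison, the lists and the pairs were chosen with earlier results of these data known.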

Additional observations from a re-analysis of the deposited data

Results flagged for a closer look

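Reported results, among them 146 genes and 12 ratios, were searched in each of PB and LDM for outlying libraries. A library was flagged where its gap to its nearest neighbour exceeded Dixon's 95% critical share of the group's range. Of 318 groups searched, 18 held such a library, near the share of about 5% that chance gives. Values are log2 CPM with a prior count of 2 unless a ratio is named.

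Among the flagged genes, PB8 was the low library of PB for several genes of fat use. Low levels in PB8 were not limited to fat use. It held the lowest PB sums for the citric acid cycle (5776 CPM), nuclear oxidative phosphorylation (4866 CPM) and collagens (847 CPM). The carnitine transferase CPT1B was at 6.12 in PB8 and between 7.31 and 8.47 in the other PB libraries. The droplet protein PLIN5 was at 3.82 in PB8 and between 4.87 and 6.003 in the others. UCP3 was at 3.49 in PB8 and at 7.45 or more in the others. The lipid synthesis gene GPAM was at 2.95 in PB8, and the dehydrogenase subunit DLD at 6.72. PB8 was also low for the proteoglycan ASPN (-1.11), the selenoprotein GPX3 (5.11), PRR33 (2.56) and the pericyte marker RGS5 (5.65).

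PB5 was the high library of PB for the coactivator PPARGC1A, at 9.02 against 4.70 to 6.91 in the other PB libraries, and for LRPPRC, at 7.75 against 6.92 to 7.31. Within LDM, LDM10 was low for ASPN (-1.41), calpastatin CAST (5.93), NPR3 (-2.91) and TFAM (2.76), and LDM6 was high for MYLK4 (2.07). The log2 ratio of CASQ2 to CASQ1 was -6.44 in LDM4 and between -9.54 and -8.09 in the other LDM libraries. That of LDHB to LDHA was -11.84 in LDM8 and between -10.42 and -8.97 in the others.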

How the results depend on the processing

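The count of genes called, 4880, ran from 4406 to 5106 as each PB or LDM library was left out and from 4360 to 5368 under the other alternatives. The 2-fold counts ran from 897 to 1451 for genes higher in PB and from 232 to 417 for genes lower. Of the calls, 49.1% were higher in PB, 46.7% under limma-voom and 58.5% when scaling left the mitochondrially encoded genes out, which moved the median change by 0.073. The differences in log2 ratio and in mitochondrial share kept their direction and passed under every alternative run, with MYOZ2 to MYOZ1 between 3.45 and 3.88 and the share between 7.11 and 7.88 percentage points as single libraries were left out. No reported gene that passed in the main fit or in an alternative changed direction between them. A change of sign in a gene that passed in neither was not counted. With the library number as a replicate block, 5368 genes were called, 2544 of them higher in PB. Same-numbered libraries correlated above 0.1 in 8 of 10 pairs (median 0.238), and 5 PB and 6 LDM libraries correlated best with their own number; this is a hint from the data that numbers may mark a shared source, which no label states. Under the block 3 collagens rose in place of 6, and 5 satellite cell genes fell in place of 2. Without the filter on low counts, 14 of the other positional factors rose in place of 8. As single libraries were left out, 11 to 25 matrix genes rose and 20 to 34 mitochondrial ribosomal proteins fell; the cause was not tested. Depth limits genes near 0.0813 CPM, the worth of a single count in the smallest PB library before the TMM factors.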
